A study of Arabidopsis thaliana with 16 samples.

Results

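Strand-specific mRNA sequencing of whole Arabidopsis thaliana seedlings measured 8 genes of the early flavonoid and flavonol pathway, of 32833 genes in the count table, in 16 libraries. The genes were chosen by identifier: CHS (AT5G13930), CHI, also called TT5 (AT3G55120), F3H (AT3G51240), FLS1 (AT5G08640), MYB12 (AT2G47460), MYB111 (AT5G49330), UGT78D1 (AT1G30530) and UGT78D2 (AT5G17050). The 8 genotypes, with 2 libraries each, were the triple mutant nup50c nup82 nup136, the double mutants nup82 nup136, nup50c nup136 and nup50c nup82, the single mutants nup136, nup82 and nup50c, and wild type (WT, Col-0). All seedlings were 9 days old, untreated and grown on MS medium with 1% sucrose, and each RNA sample came from a weighed portion of seedlings. The labels name neither alleles nor separate cultures behind the 2 libraries of a genotype, and p-values then measure only the spread between these samples. NUP50C, NUP82 and NUP136 encode proteins of the nuclear basket, the inner side of the nuclear pore.

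Flavonols are colourless phenolics that plants make from phenylalanine and that accumulate in seedlings under light and UV-B. Chalcone synthase (CHS), chalcone isomerase (CHI) and flavanone 3-hydroxylase (F3H) make dihydroflavonols, which flavonol synthase (FLS1) turns into flavonols and dihydroflavonol reductase (DFR) draws into anthocyanins. The factors MYB12 and MYB111 activate CHS, CHI, F3H and FLS1, MYB12 mainly in roots and MYB111 mainly in cotyledons. UGT78D1 attaches rhamnose, and UGT78D2 glucose, to the 3-hydroxyl group of flavonols, and UGT78D2 also acts on anthocyanidins.

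All positions are on TAIR10, and the gene starts and ends of the 8 genes are those of the RefSeq annotation. FLS1 lies on chromosome 5 from 2803833 to 2805606 on the plus strand, and CHS on the same chromosome and strand from 4488476 to 4490264. CHI lies on chromosome 3 from 20430059 to 20431597 on the minus strand. MYB12 lies on chromosome 2 from 19476326 to 19479597 on the plus strand. MYB111 (19998823 to 20001572) and UGT78D2 (5607788 to 5609589) are on the minus strand of chromosome 5. UGT78D1 is on the plus strand of chromosome 1 from 10814612 to 10816615, and F3H on the plus strand of chromosome 3 from 19025192 to 19026872. Transcripts have 2 exons in CHS, UGT78D1 and UGT78D2, 3 in MYB12 and MYB111, 4 in CHI, and 3 or 4 in F3H and FLS1.

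The 300 bases upstream of the gene start are printed for the 4 genes that were lower with nup136 on average over its backgrounds, a choice made with the motif matches known. They read 5′ to 3′ on the gene's strand, and capitals mark ACCNANC, the core of a MYB recognition element, CACGTG, the G-box, or its core ACGTG, on either strand. An ACGTG core inside a G-box is not marked apart from it. The coordinates are chr5:2803533-2803832 (plus) for FLS1, chr5:4488176-4488475 (plus) for CHS, chr3:20431598-20431897 (minus) for CHI and chr2:19476026-19476325 (plus) for MYB12.
FLS1: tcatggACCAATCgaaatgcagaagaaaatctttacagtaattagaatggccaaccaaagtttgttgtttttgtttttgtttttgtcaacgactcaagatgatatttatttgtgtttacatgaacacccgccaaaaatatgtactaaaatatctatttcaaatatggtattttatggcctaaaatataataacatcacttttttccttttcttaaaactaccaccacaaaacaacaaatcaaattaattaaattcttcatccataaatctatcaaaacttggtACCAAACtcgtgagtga
CHS: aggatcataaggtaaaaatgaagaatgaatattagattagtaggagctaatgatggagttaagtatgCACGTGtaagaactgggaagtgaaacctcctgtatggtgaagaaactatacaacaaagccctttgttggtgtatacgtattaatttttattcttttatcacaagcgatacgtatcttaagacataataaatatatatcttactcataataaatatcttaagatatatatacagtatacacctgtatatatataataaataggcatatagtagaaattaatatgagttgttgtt
CHI: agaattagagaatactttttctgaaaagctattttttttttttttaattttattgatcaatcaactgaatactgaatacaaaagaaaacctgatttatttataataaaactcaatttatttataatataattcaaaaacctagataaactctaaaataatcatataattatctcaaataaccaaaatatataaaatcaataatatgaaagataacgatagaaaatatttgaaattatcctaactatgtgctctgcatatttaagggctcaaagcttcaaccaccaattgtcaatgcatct
MYB12: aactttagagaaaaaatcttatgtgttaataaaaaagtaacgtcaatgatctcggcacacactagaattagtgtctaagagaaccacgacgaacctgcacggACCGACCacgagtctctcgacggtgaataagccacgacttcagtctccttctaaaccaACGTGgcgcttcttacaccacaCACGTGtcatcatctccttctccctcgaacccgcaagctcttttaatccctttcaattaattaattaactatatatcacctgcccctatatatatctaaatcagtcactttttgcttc
ACCAATC and ACCAAAC began 294 and 17 bases before the FLS1 start. The CHS window held 1 G-box, 233 bases before the start, and no ACCNANC, while the CHI window held none of the 3 motifs. In MYB12, ACCGACC began 198 bases, an ACGTG outside the G-box 140 bases, and a G-box 118 bases, before the start. Among the other members, UGT78D2 held ACCAATC at 228 bases, F3H held a G-box at 249 bases and a separate ACGTG at 213 bases, and MYB111 and UGT78D1 held none. ACCNANC stood in 31.9%, CACGTG in 7.09% and ACGTG in 25.6% of the 27443 upstream windows of protein-coding genes of this length. The window was lengthened to 300 bases after matches had been seen in 200 bases. There CHS held no motif, FLS1 held 1 ACCNANC and MYB12 held 1 ACCNANC, 1 G-box and the separate ACGTG at 140 bases.

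Libraries held 37923632 to 46194172 counts, and 22427 genes had enough counts to be tested, 7 of the 8 members among them. NUP136 and NUP50C RNA fell in every genotype that carries their mutation (log2 fold changes against WT of -0.74 to -1.31 for NUP136 and -1.57 to -2.24 for NUP50C). NUP82 RNA fell in the libraries labelled nup82 (-0.58 ± 0.11, adjusted p = 0.00563). It did not pass the threshold in those labelled nup50c nup82, nup82 nup136 or nup50c nup82 nup136 (-0.15, -0.23 and 0.20), so genotype names that include nup82 are those of the labels throughout, the triple mutant's among them. All 5 shoot and all 6 root marker genes had counts in every library. Summed root markers ranged from 81.7 to 134 CPM (counts scaled by library size) in the 8 libraries with nup136, against 150.3 to 186 CPM in the 8 without. Summed shoot markers ranged from 16302 to 21544 CPM in libraries with nup136, against 21115 to 24027 CPM in those without. Summed seed and pollen markers, 4 of 5 with counts in both of these genotypes, reached 27.2 to 34.6 CPM in the triple mutant and 40.6 to 92.7 CPM in nup82 nup136, against at most 1.22 CPM in any other genotype. In whole seedlings, fewer cells of a type and less RNA per cell cannot be told apart.

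F3H could not be followed. It had 1 count over all 16 libraries, in 1 nup50c nup82 library, and a count of 0 allows up to 3 counts per library. Of its 1508 exon bases, 93.8% lie under an exon of AT3G51238, a non-coding RNA gene on the opposite strand, which had 0 counts. Of the 508 protein-coding genes with at least 90% of their exon bases under exons of the opposite strand, 465 (91.5%) had 0 counts in all libraries, against 2399 of 20867 (11.5%) of those with no such overlap. The strand setting of the counting was not given in the sources used here. F3H is therefore left out of every count of genes below, and nothing follows about its RNA.

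Per length, CHS stood highest in WT, at 137 ± 8.60 FPKM (SD, n = 2), followed by FLS1 at 52.6 ± 0.992 FPKM and CHI at 32.9 ± 0.301 FPKM. UGT78D1 and UGT78D2 stood at 13.9 ± 0.429 and 11.5 ± 0.994 FPKM. The 2 regulators were the lowest, MYB12 at 2.13 ± 0.460 and MYB111 at 1.58 ± 0.419 FPKM. The levels below are CPM scaled by TMM, which compare genotypes for 1 gene and not genes with each other.

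**Figure D1:**
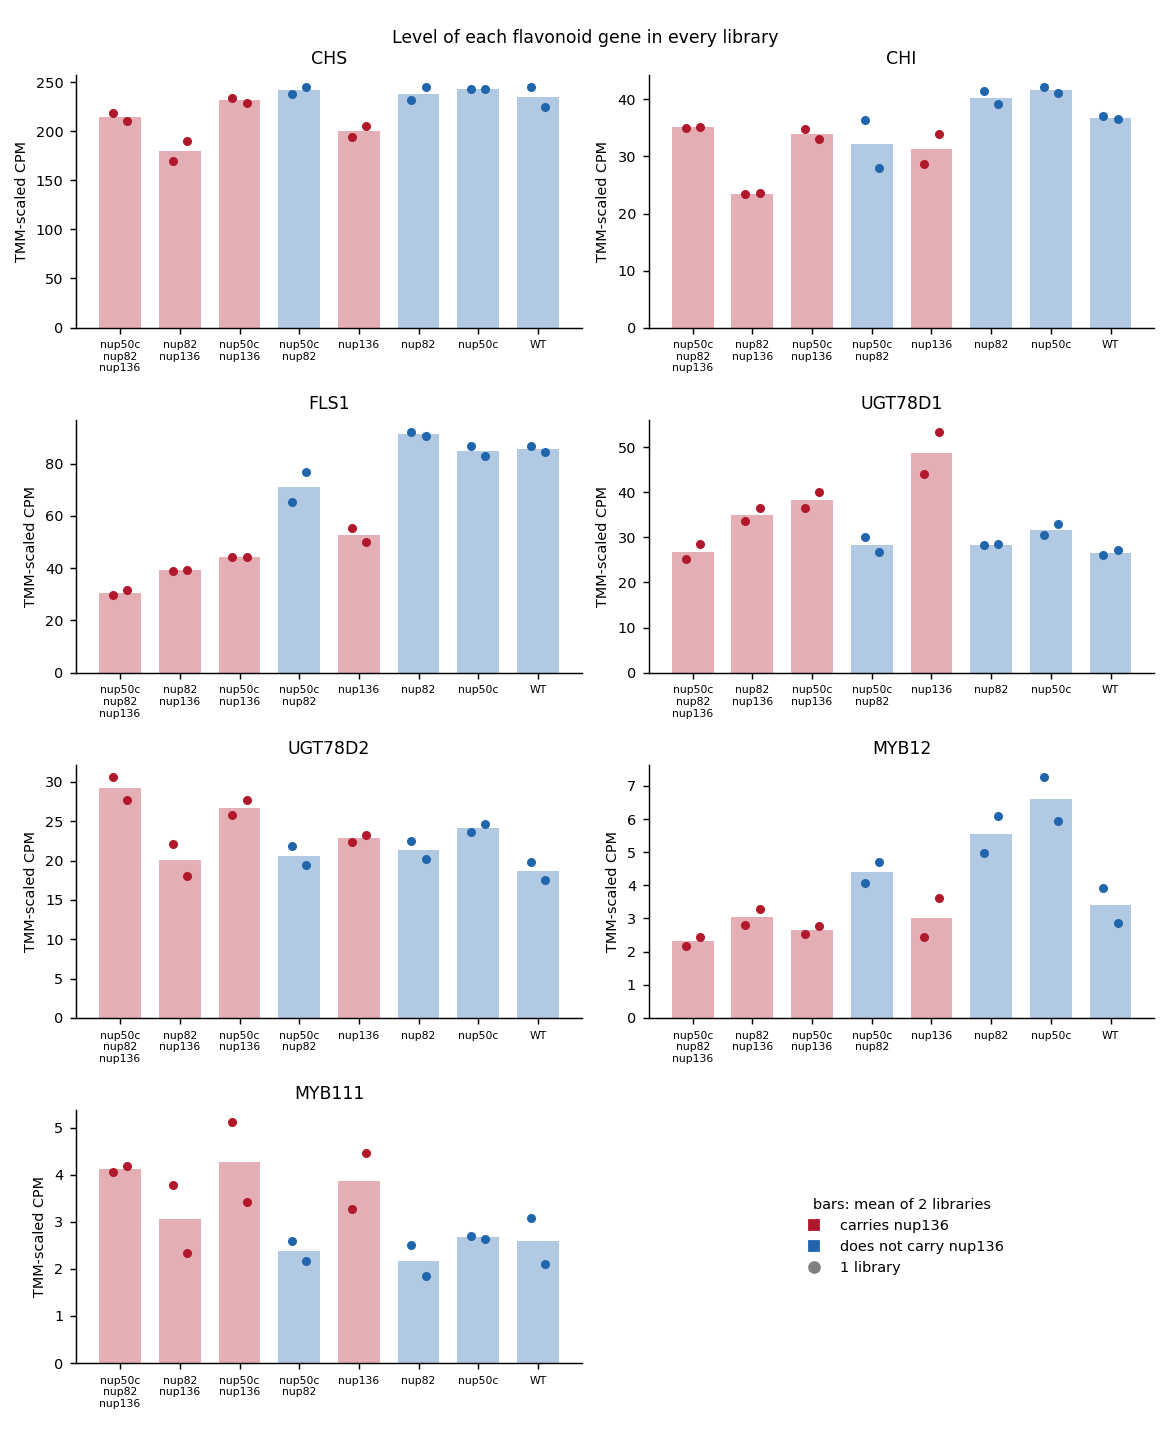
TMM-scaled CPM (vertical axis, from 0) of the 7 measured genes in every library, by genotype. Points are libraries and bars are means of 2; FLS1 is the gene whose nup136 carriers, at 29.6 to 55.5 CPM, all sit below the other genotypes.

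FLS1, which commits dihydroflavonols to flavonols, fell in all 4 genotypes that carry nup136. It had 29.6 and 31.7 CPM in the triple mutant, 38.8 and 39.5 in nup82 nup136, 44.4 and 44.4 in nup50c nup136, and 55.5 and 50.0 in nup136. It had 65.4 and 76.7 CPM in nup50c nup82, 92.2 and 90.7 in nup82, 86.8 and 82.9 in nup50c, and 86.8 and 84.4 in WT. The 8 libraries with nup136 (29.6 to 55.5 CPM) and the 8 without (65.4 to 92.2 CPM) did not overlap. FLS1 was the only measured member of which this held for any of the 3 mutations. The share of all tested genes that separate this way was not counted, and 52.6% of them passed for nup136 averaged over its backgrounds. Against WT the log2 fold change was -1.48 ± 0.09 in the triple mutant (adjusted p = 3.87e-13), a 2.80-fold lower level, and -1.13 ± 0.09 in nup82 nup136 (adjusted p = 8.12e-10). It was -0.95 ± 0.08 in nup50c nup136 (adjusted p = 7.06e-09) and -0.70 ± 0.08 in nup136 (adjusted p = 2.02e-06). These 4 falls exceeded the spread between libraries. In the genotypes without nup136 no change of FLS1 passed the threshold: the values were -0.27 ± 0.08 in nup50c nup82 (adjusted p = 0.134), 0.10 ± 0.08 in nup82 and -0.01 ± 0.08 in nup50c. In order of level, nup82, WT, nup50c and nup50c nup82 stood first, and no neighbours among them passed the threshold, though the nup50c nup82 libraries lay below those of nup50c (-0.26 ± 0.08, adjusted p = 0.0832, or 0.0381 in DESeq2). The step down to nup136 passed the threshold (adjusted p = 0.0013), the steps to nup50c nup136 and on to nup82 nup136 did not (adjusted p = 0.0672 and 0.226, the first of them 0.0493 in DESeq2 and 0.0476 without nup136 replicate 2), and the step to the triple mutant did (adjusted p = 0.00278, or 0.0508 without triple mutant replicate 1).

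MYB12, an activator of the early genes, had its lowest levels in the triple mutant and its highest in nup50c. It had 2.16 and 2.46 CPM in the triple mutant, 2.79 and 3.30 in nup82 nup136, 2.53 and 2.76 in nup50c nup136, and 2.44 and 3.61 in nup136. It had 4.08 and 4.71 CPM in nup50c nup82, 4.97 and 6.11 in nup82, 7.27 and 5.93 in nup50c, and 3.91 and 2.87 in WT. WT libraries lay low among the genotypes without nup136, and the ranges with nup136 (2.16 to 3.61 CPM) and without (2.87 to 7.27 CPM) overlapped. Against WT, MYB12 rose in nup50c (0.96 ± 0.24, adjusted p = 0.0376), a call that ended without any 1 of its 4 libraries (adjusted p = 0.078 to 0.434). No other change against WT passed, the largest fall being -0.56 ± 0.25 in the triple mutant (adjusted p = 0.0724, or 0.0442 without WT replicate 2). It fell where nup136 was added to another mutation: -1.32 ± 0.25 in nup50c nup136 against nup50c (adjusted p = 0.000232) and -0.93 ± 0.25 in the triple mutant against nup50c nup82 (adjusted p = 0.00361). The fall in nup82 nup136 against nup82 (-0.86 ± 0.24, adjusted p = 0.0122) was lost without nup82 replicate 2 (0.123) or nup82 nup136 replicate 1 (0.1). No pair of neighbouring genotypes in its order of levels passed the threshold. Averaged over the backgrounds of nup136, 4 of 6 root markers and all 5 shoot markers were lower, where 26.9% of all tested genes fell. The part of either set in the MYB12 and FLS1 results was not tested.

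MYB111, the related activator, had its highest levels in genotypes with nup136. It had 4.06 and 4.18 CPM in the triple mutant, 3.77 and 2.35 in nup82 nup136, 5.12 and 3.43 in nup50c nup136, and 3.27 and 4.45 in nup136. It had 2.60 and 2.17 CPM in nup50c nup82, 2.50 and 1.84 in nup82, 2.70 and 2.64 in nup50c, and 3.08 and 2.1 in WT. Libraries with nup136 were mostly the higher ones, with overlap through nup82 nup136 replicate 2. No change against WT passed the threshold: the highest were 0.72 ± 0.29 in nup50c nup136 (adjusted p = 0.0712) and 0.66 ± 0.29 in the triple mutant (adjusted p = 0.061). The value in the triple mutant passed with no filter on low counts (0.0357), in a fit of the triple mutant and WT alone (0.039) and without WT replicate 1 (0.04), and the value in nup50c nup136 passed with no filter (0.0394) and without nup50c nup136 replicate 2 (0.0449). The triple mutant exceeded nup50c nup82 (0.79 ± 0.29, adjusted p = 0.0291), but not without any 1 of the 4 libraries compared (adjusted p = 0.0562 to 0.167). No neighbours in its order of levels passed the threshold.

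CHS, the first enzyme of the pathway, had its lowest levels in nup82 nup136. It had 219 and 211 CPM in the triple mutant, 170.0 and 189.6 in nup82 nup136, 234 and 228 in nup50c nup136, and 194 and 206 in nup136. It had 238 and 245 CPM in nup50c nup82, 232 and 245 in nup82, 243 and 243 in nup50c, and 245 and 224 in WT. Both nup82 nup136 libraries lay below every other library. CHS fell in nup82 nup136 against WT by 0.39 ± 0.07 on the log2 scale (adjusted p = 0.000469). Its fall in nup136 (-0.23 ± 0.07, adjusted p = 0.0353) did not pass with library totals as the scaling (0.0713), in a fit of the 2 genotypes alone (0.0898) or without WT replicate 1 (0.308), nup136 replicate 1 (0.192) or nup136 replicate 2 (0.0573). The triple mutant was at -0.13 ± 0.07 against WT (adjusted p = 0.159). No neighbouring pair in its order of levels passed the threshold, nup82 nup136 below nup136 included (-0.15 ± 0.07, adjusted p = 0.2), whose libraries did not overlap.

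CHI, which closes the flavanone ring, followed CHS most closely of the members: r was 0.85 over the 8 genotype means of log2 CPM, as a description. It had 34.97 and 35.2 CPM in the triple mutant, 23.4 and 23.5 in nup82 nup136, 34.9 and 33.1 in nup50c nup136, and 28.7 and 33.9 in nup136. It had 36.3 and 27.9 CPM in nup50c nup82, 41.5 and 39.2 in nup82, 42.3 and 41.2 in nup50c, and 37.1 and 36.6 in WT. The nup82 nup136 libraries were again the lowest of all. CHI fell there against WT by 0.65 ± 0.11 (adjusted p = 7.87e-05) and passed in no other comparison with WT. Its lowest step of level, nup82 nup136 below nup136, passed (-0.42 ± 0.11, adjusted p = 0.0104), but not in a fit of these genotypes alone (0.0698) or without nup136 replicate 2 (0.159) or nup82 nup136 replicate 1 (0.0594). The triple mutant stood above nup82 nup136 (0.58 ± 0.11, adjusted p = 0.000174). The libraries labelled nup82 nup136 also held the highest seed and pollen marker sums, whose part in the CHS and CHI values was not tested.

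UGT78D1, the flavonol rhamnosyltransferase, was highest in nup136 and at the WT level in the triple mutant. It had 25.2 and 28.4 CPM in the triple mutant, 33.5 and 36.5 in nup82 nup136, 36.4 and 40.0 in nup50c nup136, and 43.9 and 53.4 in nup136. It had 30.1 and 26.7 CPM in nup50c nup82, 28.2 and 28.5 in nup82, 30.5 and 32.9 in nup50c, and 26.1 and 27.2 in WT. The triple mutant overlapped WT, and the other 3 genotypes with nup136 lay above it. UGT78D1 rose against WT in nup136 (0.87 ± 0.11, adjusted p = 2.11e-06) and in nup50c nup136 (0.52 ± 0.11, adjusted p = 0.000579). Its rise in nup82 nup136 (0.40 ± 0.11, adjusted p = 0.00866) did not pass without WT replicate 1 (0.0812) or nup82 nup136 replicate 2 (0.0751). The value in the triple mutant was 0.01 ± 0.11 (adjusted p = 0.949, 95% interval -0.21 to 0.23). The triple mutant lay below nup50c nup136 by 0.51 ± 0.11 (adjusted p = 0.000731). In its order of levels the step from nup136 down to nup50c nup136 passed (adjusted p = 0.0341), though not in a fit of the pair alone (0.0765) or without nup136 replicate 2 (0.383) or either nup50c nup136 library (0.246 and 0.0668).

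UGT78D2, the flavonoid glucosyltransferase, was highest in the triple mutant. It had 30.6 and 27.7 CPM in the triple mutant, 22.2 and 18.0 in nup82 nup136, 25.8 and 27.6 in nup50c nup136, and 22.4 and 23.3 in nup136. It had 21.9 and 19.4 CPM in nup50c nup82, 22.5 and 20.2 in nup82, 23.7 and 24.6 in nup50c, and 19.8 and 17.5 in WT. The triple mutant and nup50c nup136 lay above all other libraries. UGT78D2 rose against WT in the triple mutant (0.64 ± 0.12, adjusted p = 5.62e-05) and in nup50c nup136 (0.52 ± 0.12, adjusted p = 0.00165). The triple mutant also exceeded nup82 nup136 (0.54 ± 0.12, adjusted p = 0.000846). No neighbours in its order of levels passed the threshold.

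**Figure D2:**
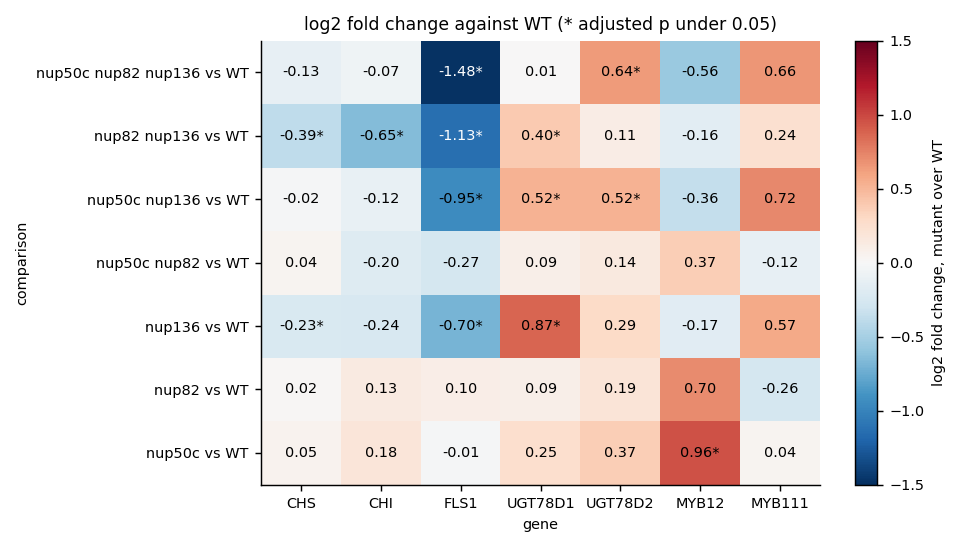
Log2 fold change of each gene (columns) in each mutant over WT (rows), with the value printed and an asterisk where the adjusted p was under 0.05. The FLS1 column holds the lowest values, -1.48 to -0.70 in the 4 genotypes with nup136, while CHS and CHI stay near 0 in most rows.

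Counted over the 7 measured genes, 1 rose and 1 fell in the triple mutant against WT, where 23.3% of all tested genes rose, 24.3% fell and 47.6% passed either way. In nup82 nup136 1 rose and 3 fell, where 7.95% of all genes rose, 11.3% fell and 19.3% passed. In nup50c nup136 2 rose and 1 fell, where 11.7% of all genes rose, 13.1% fell and 24.7% passed. In nup136 1 rose and 2 fell, where 6.56% of all genes rose, 7.83% fell and 14.4% passed. In nup50c 1 rose, where 0.923% of all genes rose and 1.73% passed. In nup50c nup82 (0.905% of all genes) and in nup82 (1.39%) 0 of the 7 passed in edgeR and 0 in DESeq2, and 1 gene each had an unadjusted p under 0.05. In the triple mutant 28.6% of the 7 genes passed, against 47.6% of all genes, and 4 of the 7 had an unadjusted p under 0.05. Counts of so few genes do not set the members apart. These 7 comparisons share the 2 WT libraries.

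Averaged over the 4 backgrounds of a mutation, all 7 genes passed for nup136, where 25.7% of all tested genes rose, 26.9% fell and 52.6% passed. The 4 that fell were FLS1 (-1.02 ± 0.04, adjusted p = 3.95e-16), MYB12 (-0.82 ± 0.12, adjusted p = 4.16e-06), CHI (-0.30 ± 0.05, adjusted p = 4.39e-05) and CHS (-0.22 ± 0.04, adjusted p = 1.96e-05). The 3 that rose were MYB111 (0.63 ± 0.15, adjusted p = 0.000725), UGT78D1 (0.34 ± 0.05, adjusted p = 5.77e-06) and UGT78D2 (0.21 ± 0.06, adjusted p = 0.00321). For nup50c, CHS (0.13 ± 0.04) and UGT78D2 (0.27 ± 0.06) rose and FLS1 (-0.25 ± 0.04) fell, where 8.61% of all genes rose, 8.8% fell and 17.4% passed. For nup82, FLS1 (-0.28 ± 0.04), UGT78D1 (-0.26 ± 0.05) and CHI (-0.15 ± 0.05) fell, where 8.57% of all genes fell and 15.1% passed. The CHI value for nup82 (adjusted p = 0.0499) did not pass with library totals as the scaling (0.0512) or without any 1 of 14 of the 16 libraries (0.0572 to 0.164). FLS1 was the only one of the 7 that passed in all 3 averages, each time lower, and the share of all genes that did so was not counted. These averages include backgrounds with other mutations. Against WT, FLS1 did not pass in the single mutants nup82 (0.10 ± 0.08) and nup50c (-0.01 ± 0.08).

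**Figure D3:**
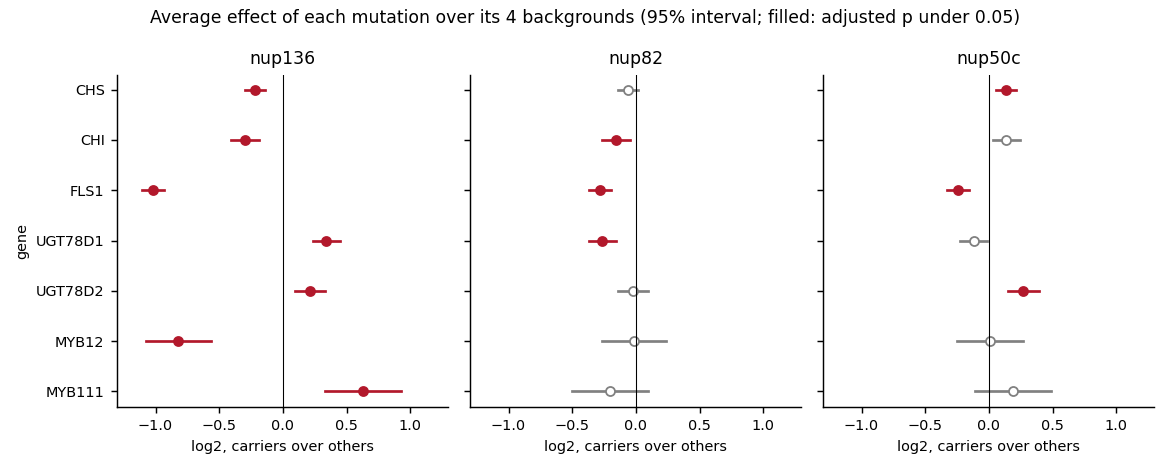
Log2 difference between the 4 genotypes with a mutation and the 4 without it (horizontal axis), with 95% intervals, for nup136, nup82 and nup50c. Filled points have an adjusted p under 0.05; in the nup136 panel FLS1 at -1.02 and MYB12 at -0.82 lie left of 0 and MYB111 at 0.63 lies right of it.

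The mutations were also added stepwise, each double against its singles and the triple against each double, which gave 63 values for the 7 genes. Of these, 25 passed, and 12 of the 25 did not pass without some 1 library. The triple mutant gave 4 of 7 against nup50c nup82 (46.3% of all genes), 5 against nup82 nup136 (29.8%) and 2 against nup50c nup136 (22%). The double mutant nup82 nup136 gave 5 of 7 against nup82 (21.5%) and 3 against nup136 (12.6%), and nup50c nup136 gave 3 against nup50c (27%) and 1 against nup136 (8.9%). The double mutant nup50c nup82 gave 1 against nup50c (4.4%) and 1 against nup82 (3.4%). FLS1 fell in 7 of its 9 steps, by 0.93 ± 0.08 in nup50c nup136 against nup50c, 1.22 ± 0.09 in nup82 nup136 against nup82, and 1.21 ± 0.09 in the triple mutant against nup50c nup82. Where nup82 was added to a genotype with nup136, FLS1 fell by 0.43 ± 0.09 against nup136 (adjusted p = 0.00101) and by 0.54 ± 0.09 against nup50c nup136 (adjusted p = 4.55e-05). Its fall in nup50c nup82 against nup82 (-0.36 ± 0.08, adjusted p = 0.0139) did not pass without nup82 replicate 1 (0.0966), nup82 replicate 2 (0.1) or nup50c nup82 replicate 1 (0.247). Tests of non-additivity on the log2 scale ask, for 2 mutations, whether the double mutant departs from the sum of the single effects. The three-way term asks whether that departure differs when the remaining mutation is present. It does not place the triple mutant against the sum of the single effects. For nup50c with nup82 the tests gave 2 of 7 (4.78% of all genes), for nup50c with nup136 1 (5.17%), for nup82 with nup136 3 (8.77%) and for the three-way term 2 (9.55%). The count of 8 of 28 dropped to 4 without WT replicate 2, nup82 replicate 1 or nup136 replicate 2, and to 5 without WT replicate 1, nup82 replicate 2 or either nup50c library. FLS1 departed downwards in nup82 nup136 (-0.53 ± 0.12, adjusted p = 0.00509), and the three-way term of CHI was 0.97 ± 0.21 (adjusted p = 0.00369). These 2 passed without each library in turn.

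**Figure D4:**
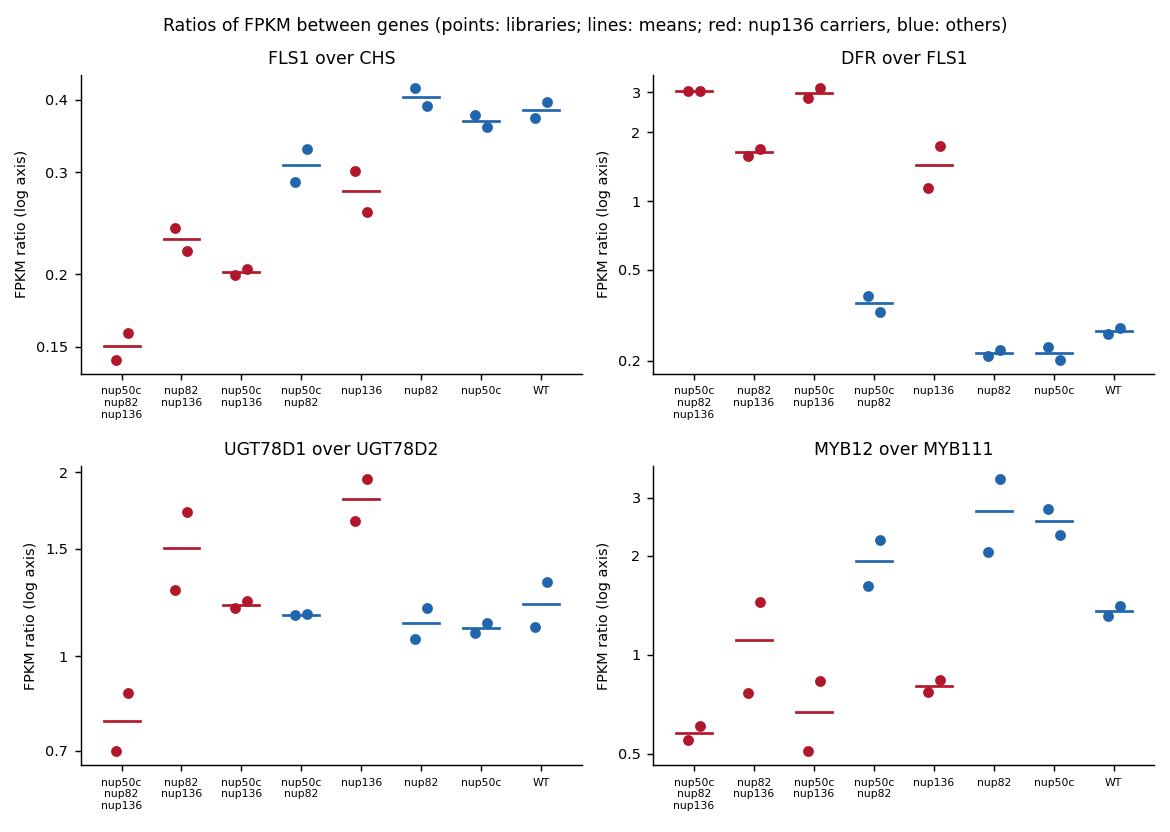
Ratios of FPKM between pairs of genes in every library (vertical log axes), by genotype, with lines at the mean of 2. DFR over FLS1 separates libraries with nup136 (1.14 to 3.12) from those without (0.201 to 0.384), and the other ratios overlap.

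Ratios of FPKM place neighbouring steps side by side. FLS1 over CHS ranged from 0.142 to 0.301 (median 0.212) in the 8 libraries with nup136, against 0.289 to 0.419 (median 0.374) in the 8 without. The lowest were the triple mutant libraries at 0.142 and 0.158, against 0.372 and 0.396 in WT. DFR over FLS1, the ratio of the enzymes that share dihydroflavonols, ranged from 1.14 to 3.12 (median 2.29) with nup136, against 0.201 to 0.384 (median 0.246) without, and the ranges did not overlap. MYB12 over MYB111 ranged from 0.508 to 1.45 (median 0.767) with nup136, against 1.31 to 3.41 (median 2.14) without. UGT78D1 over UGT78D2 was 0.699 and 0.871 in the triple mutant, against 1.12 and 1.32 in WT, and the triple mutant libraries were the only ones below 1. The ratios are descriptions of the same values and were not tested.

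**Figure D5:**
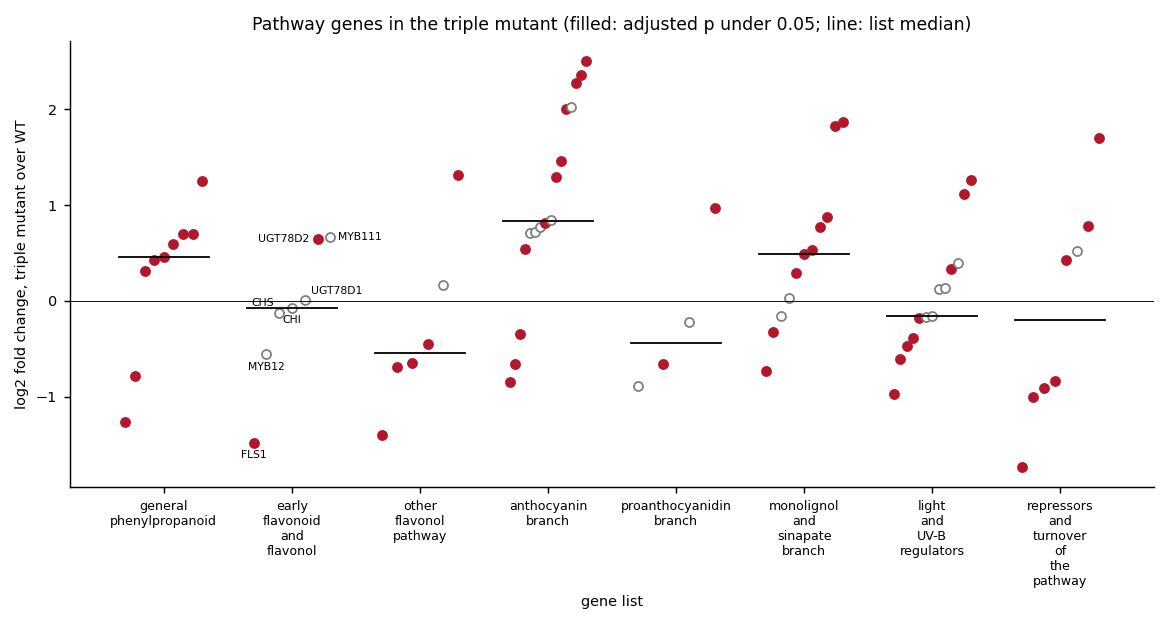
Log2 fold change, triple mutant over WT (vertical axis), of the genes of each pathway list, with filled points at an adjusted p under 0.05 and a line at the list median. The 7 early flavonoid and flavonol genes spread around a median of -0.07, and the anthocyanin branch around 0.83.

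The other genes of the pathway were taken from lists made from textbook knowledge. In the triple mutant, the 6 tested genes of 10 further flavonol genes had 1 riser and 4 fallers, with a median log2 fold change of -0.55 against 0.00 over all tested genes. Among the untested, UGT89C1 and UGT73C6 had 0 counts, with 99.6% and 100% of their exon bases under opposite-strand exons. As for F3H, nothing follows about their RNA. CHIL, which assists CHS in making chalcone, fell like FLS1 in all 4 genotypes with nup136: by 1.40 ± 0.10 in the triple mutant, 1.07 ± 0.10 in nup82 nup136, 0.68 ± 0.09 in nup50c nup136 and 0.49 ± 0.09 in nup136. The FLS1 relatives FLS3 (-0.69 ± 0.13) and FLS5 (-0.65 ± 0.09) fell in the triple mutant, and OMT1, a methyltransferase of flavonols and lignin precursors, rose (1.31 ± 0.09). Of the 16 anthocyanin genes, 8 rose and 3 fell, with a median of 0.83. DFR rose in the triple mutant by 2.01 ± 0.12, LDOX, which makes anthocyanidins, by 2.36 ± 0.17, UGT75C1, an anthocyanin glucosyltransferase, by 2.28 ± 0.29 and TT19, which carries anthocyanins towards the vacuole, by 2.50 ± 0.22. FLS1 and DFR, which use the same substrate, thus moved in opposite directions in the triple mutant. Upstream, 7 of 9 general phenylpropanoid genes rose and 2 fell (median 0.46), with C4H, the cinnamate hydroxylase, at 1.25 ± 0.08 and 4CL3, the ligase isoform tied to flavonoids, at -1.27 ± 0.14. Of the 11 genes of the monolignol and sinapate branch, 7 rose and 2 fell (median 0.49), with F5H, a ferulate hydroxylase, at 1.82 ± 0.08 and CAD5, a cinnamyl alcohol dehydrogenase, at 1.87 ± 0.10. Of 8 tested genes for repressors and turnover, 3 rose and 4 fell. MYBL2, a repressor of the late genes, was at -1.73 ± 0.14, and the F-box genes KFB01 and KFB20, whose proteins remove PAL, were at 1.70 ± 0.10 and -1.0 ± 0.10. Of 13 light and UV-B regulators, 3 rose and 5 fell, with BBX20 at 1.26 ± 0.21 and RUP1, a brake on UV-B signalling, at -0.97 ± 0.24 (adjusted p = 0.00157, or 0.0524 without triple mutant replicate 2). Of 4 tested proanthocyanidin genes, 1 rose and 1 fell, and the rise of AHA10, a vacuolar proton pump, did not pass without WT replicate 1 (adjusted p = 0.41) or triple mutant replicate 1 (0.226). With 47.6% of all genes passing in this comparison, these counts describe the lists and set none of them apart.

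Among 19112 protein-coding genes with a mean of at least 1 CPM, those whose log2 CPM resembled each member most over the 8 genotype means are given as a description. For FLS1 they were AT4G37700, AT2G30840 (a 2-oxoacid-dependent dioxygenase gene by the table's annotation) and CYP708A2, with r of 0.997, 0.996 and 0.996. For MYB12 they were PRR5, AT2G46100 and AT1G61360 (r of 0.968, 0.959 and 0.958), and for MYB111 AT5G53590, AT3G14220 and GrxC5 (0.987, 0.986 and 0.984). For UGT78D1 they were BCA3, AT4G18440 and AOC2 (0.978, 0.973 and 0.958), and for UGT78D2 AT4G14240, AT5G39250 and PUX4 (0.980, 0.977 and 0.977). For CHS they were SRT2, STN7 and AT3G51730 (0.964, 0.964 and 0.962), and for CHI AT3G14280, RHD4 and RD21A (0.980, 0.963 and 0.958). Among the members themselves, FLS1 ran with MYB12 (r = 0.84) and against MYB111 (r = -0.82) over these 8 means, which share the split by nup136.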

How the data were processed

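The authors deposited raw read counts per gene and FPKM values for the 16 libraries; per the submitters' processing notes the build is TAIR10 and the tools include HISAT2 2.0.4 and HTSeq 0.6.1p1. The deposited FPKM equal count over gene length and a library constant. Counts were fitted for all genotypes together with edgeR 4.0.16 (R 4.3.3): TMM scaling, filterByExpr with a minimum count of 10, robust quasi-likelihood fit, 8 residual degrees of freedom. Benjamini-Hochberg adjustment ran over all 22427 tested genes, and a gene rose, fell or passed at an adjusted p under 0.05; ± after a log2 fold change is its standard error. Floors and intervals (95%) cover counting or model error only. Alternatives were DESeq2 1.42.0, other scalings, no filter, fits of 2 genotypes, a replicate block and each library left out. Named are the 8 members, the 3 mutated genes, up to 4 genes per other list with the largest change in the triple mutant, and 3 genes like each member. Members and lists were chosen with earlier results of these data known. The fit was tested on simulated data. Motifs were searched in RefSeq sequence; a TATAAA search in 200 bases was dropped after its matches were seen, and the promoters to print were chosen with matches known.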

Additional observations from a re-analysis of the deposited data

Results flagged for a closer look

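The effect of a mutation on a member differed with the other mutations present in 8 tests of non-additivity, each on the log2 scale. A value for 2 mutations is the departure of the double mutant from the sum of the single effects. A three-way term is the change of that departure when the remaining mutation is present. For FLS1 the departure in nup82 nup136 was -0.53. For CHI it was -0.51 in nup50c nup82 and -0.55 in nup82 nup136, and the three-way term was 0.97. For MYB12 the departure was -1.29 in nup50c nup82, where the libraries of each single mutant lay above those of WT. For UGT78D1 it was -0.60 in nup50c nup136 and -0.56 in nup82 nup136, both below the sum of the single effects. For UGT78D2 the three-way term was 0.73. Neither three-way term places the triple mutant against the sum of the single effects. Leaving out 1 library ended 6 of these calls, all but FLS1 and the three-way term of CHI. Groups of 2 libraries are too small for a search for outlying libraries.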

How the results depend on the processing

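Of 161 values of the members, none changed direction while past the threshold. With DESeq2 size factors all 161 kept their side of the threshold. With library totals 4 of the 59 passing values were lost and 2 gained, with no filter 5 gained, with the DESeq2 Wald test 5 gained, and in fits of 2 genotypes 4 of 38 were lost and 2 gained, among 112 values. The number of members that passed in nup50c against WT was 1 with all libraries and 0 to 0 with 1 library left out, and in the tests of non-additivity it was 8, and 4 to 8 with 1 library left out. Of 1064 values with 1 library left out, 91 no longer passed and 13 newly passed, and 73 that did not pass changed sign. Of the passing values, 10 of 13 against WT, 13 of 25 for added mutations, 12 of 13 averages and 2 of 8 of non-additivity passed without each library in turn. Library totals shifted the median of all genes by at most 0.06 (log2).

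With the replicate number as a block, 2 values newly passed, MYB111 in the triple mutant against WT (adjusted p = 0.0438) and UGT78D1 in nup50c nup136 against nup50c (adjusted p = 0.0401), and none was lost. Same-numbered libraries did not deviate together (r of -0.06 to 0.05 over 28 genotype pairs). This check looks only for a shared shift over all genes and cannot tell whether the numbers pair the samples. With 2 libraries per genotype, changes of the lowly counted MYB12 and MYB111 are the least precise.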
